A study of Mus musculus with 20 samples.

Results

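The difference between IR 4A and WT mice in fat was compared with that in liver, gene by gene, over all 20 libraries of the study. Poly-A RNA was sequenced from the liver and from epididymal fat (eWAT, a pad of white adipose tissue that lies along the epididymis) of male mice aged 2 months. The 4 groups were liver WT, liver IR 4A, eWAT WT and eWAT IR 4A, with 5 libraries each. The labels name the genotypes only as WT and IR 4A; in earlier work IR 4A stands for an insulin receptor whose MAD2-binding motif carries alanine substitutions. The labels give no treatment, diet or feeding state, no origin of the allele and no link between an eWAT library and a liver library, so every library was taken as a separate sample. Nothing in the labels says that the libraries of a group came from separate animals, so the p-values rest on the variation among libraries, which may be technical.

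The measure throughout is a difference of differences on the log2 scale: the log2 fold change of IR 4A against WT in eWAT minus that in liver. A positive value means that the level in IR 4A, relative to WT of the same tissue, was higher in fat than in liver. A negative value means the opposite. Of 15350 genes in both tables, 11969 had enough counts in each tissue on its own and were tested. The adjusted p-values are those of the edgeR quasi-likelihood F test with Benjamini-Hochberg adjustment over all 11969 genes, with a spread of its own for each tissue and a threshold of 0.05.

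The insulin receptor is a cell-surface kinase that binds insulin, signals through the IRS adaptor proteins and is then taken into the cell, which ends or redirects the signal. MAD2 (gene Mad2l1) is a spindle checkpoint protein, and with BUBR1 (gene Bub1b) it can bring the clathrin adaptor AP2 to the receptor. In liver, insulin promotes lipid synthesis and restrains glucose output, while in fat it promotes glucose uptake and storage of lipid and restrains lipolysis. Whether a receptor that cannot bind MAD2 alters gene expression alike in both tissues is the question that the comparison of the tissues addresses.

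The liver libraries held 17989420 to 24238359 counts and the eWAT libraries 13651874 to 21615358. The spread between libraries was wider in fat, with a common biological coefficient of variation of 0.283 in eWAT and 0.177 in liver. Levels are given as CPM, counts scaled to a common library size after TMM scaling within a tissue. Hepatocyte markers summed to 90807 to 104674 CPM in liver IR 4A and 93900 to 109003 CPM in liver WT, against 231 to 2688 CPM in eWAT. Adipocyte markers summed to 12617 to 39031 CPM in eWAT WT, 3926 to 20921 CPM in eWAT IR 4A and at most 272 CPM in liver. Both tissues thus showed their own markers. The eWAT libraries also held epididymis transcripts: the 21 of 22 epididymis markers in the eWAT table summed to 29688, 27693, 34129, 5529 and 41097 CPM in WT replicates 1 to 5 and to 35594, 48735, 53277, 48660 and 38319 CPM in IR 4A replicates 1 to 5. All 21 had a higher mean in IR 4A, and 2 of them were at 0 in a library (two-sided exact permutation test of the sums, p = 0.0317, adjusted p = 0.0571 over 18 marker lists). In liver these markers summed to at most 1.88 CPM, and none of them was among the genes tested here. Because genotype and epididymis content moved together in fat, the comparison was repeated with the epididymis sum as a covariate, which left 7 of the 366 called genes described below, all of them negative. Testis and sperm markers were high in eWAT WT 1, WT 2, IR 4A 3 and IR 4A 4 (2953, 9379, 3199 and 4488 CPM, against 251 to 998 CPM in the other 6), and without these 4 libraries 24 genes were called, 23 of them among the 366. The part of fat composition in the other calls was not tested. In bulk tissue, fewer cells of a type and less RNA per cell cannot be told apart.

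**Figure D1:**
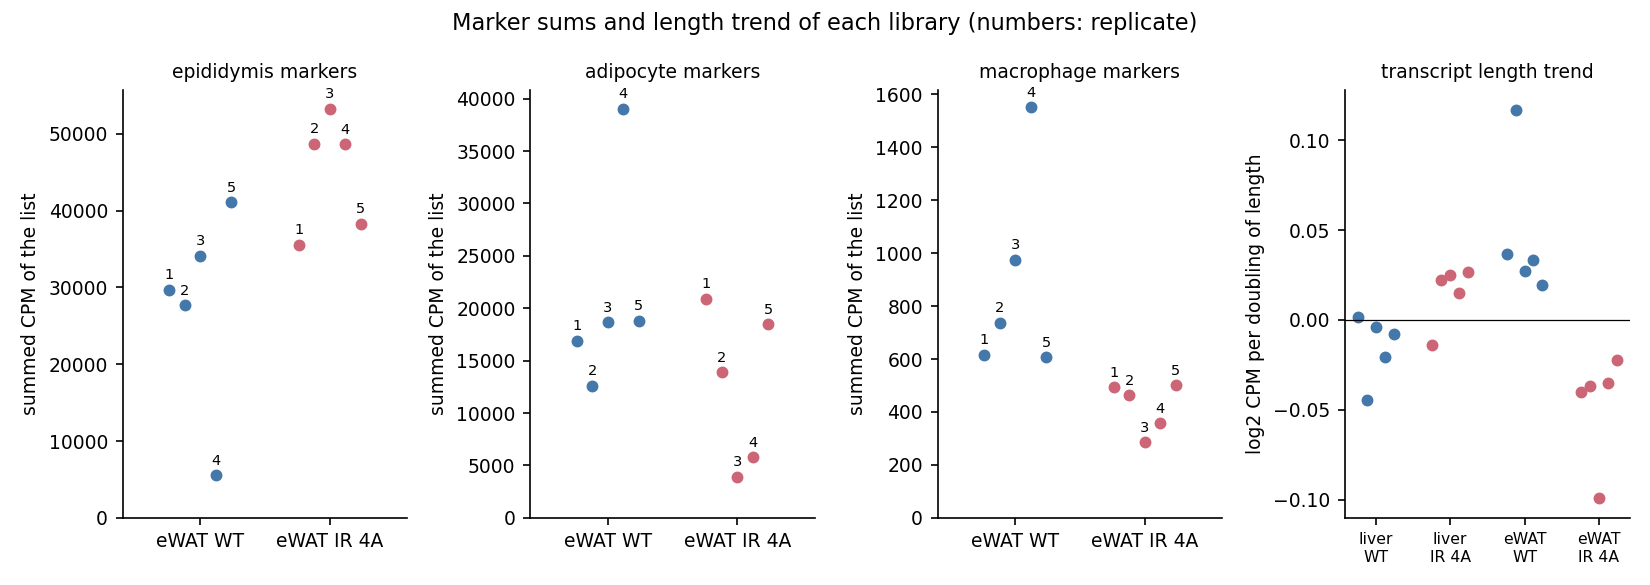
Summed CPM of epididymis, adipocyte and macrophage markers in each eWAT library (points, numbered by replicate) and the trend of log2 CPM with transcript length in each library of both tissues (log2 CPM per doubling of length, against the mean of the tissue). The eWAT WT 4 library had the lowest epididymis sum (5529 CPM) and the highest adipocyte (39031 CPM) and macrophage sums (1552 CPM), and the length trends of the eWAT WT libraries were all above those of the eWAT IR 4A libraries.

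The IR 4A change differed between fat and liver for 366 of 11969 genes (3.06%). Of these, 155 had a positive difference (1.3% of genes tested) and 211 a negative one (1.76%). At an unadjusted p under 0.05 the difference passed for 22.7% of genes, 1215 positive and 1503 negative. By estimate, all 155 positive genes were lower in IR 4A liver and higher in IR 4A fat, and 204 of the 211 negative genes were higher in IR 4A liver and lower in IR 4A fat. Over all tested genes the estimates had opposite signs in 57%. A call on the difference favours opposite signs by its construction, so the larger share among called genes is a description only. Leaving out 1 library at a time gave between 63 calls (without eWAT IR 4A 3) and 889 calls (without liver IR 4A 1). Groups of 5 libraries did not overlap in liver for 3.48% of genes, in eWAT for 7.51% and in both tissues for 0.401%.

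The positive and negative genes differed in size and in kind. The median difference was 0.70 for the positive genes (median log2 fold change -0.31 in liver and 0.41 in eWAT) and -1.49 for the negative ones (0.51 in liver and -0.87 in eWAT), against -0.04 over all genes. The negative genes were on the whole more abundant in fat than in liver: their median log2 ratio of eWAT WT to liver WT CPM was 2.69, against 0.94 for the positive genes and 1.29 for all. Their longest transcripts had a median length of 4987 nucleotides, against 1796 for the positive genes and 3442 for all. Length moved with genotype in the libraries themselves. The slope of log2 CPM per doubling of transcript length was 0.0197 to 0.117 in eWAT WT and -0.0993 to -0.0223 in eWAT IR 4A (exact permutation p = 0.00794), and -0.0445 to 0.00173 in liver WT and -0.0139 to 0.0265 in liver IR 4A (exact permutation p = 0.0317). With the length and GC trend of each library removed, 193 genes were called, 97 positive and 96 negative, of which 161 were among the 366. The share of positive calls, 42.3%, was 53.2% with upper-quartile scaling and 31.8% with TMM over all 20 libraries together.

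**Figure D2:**
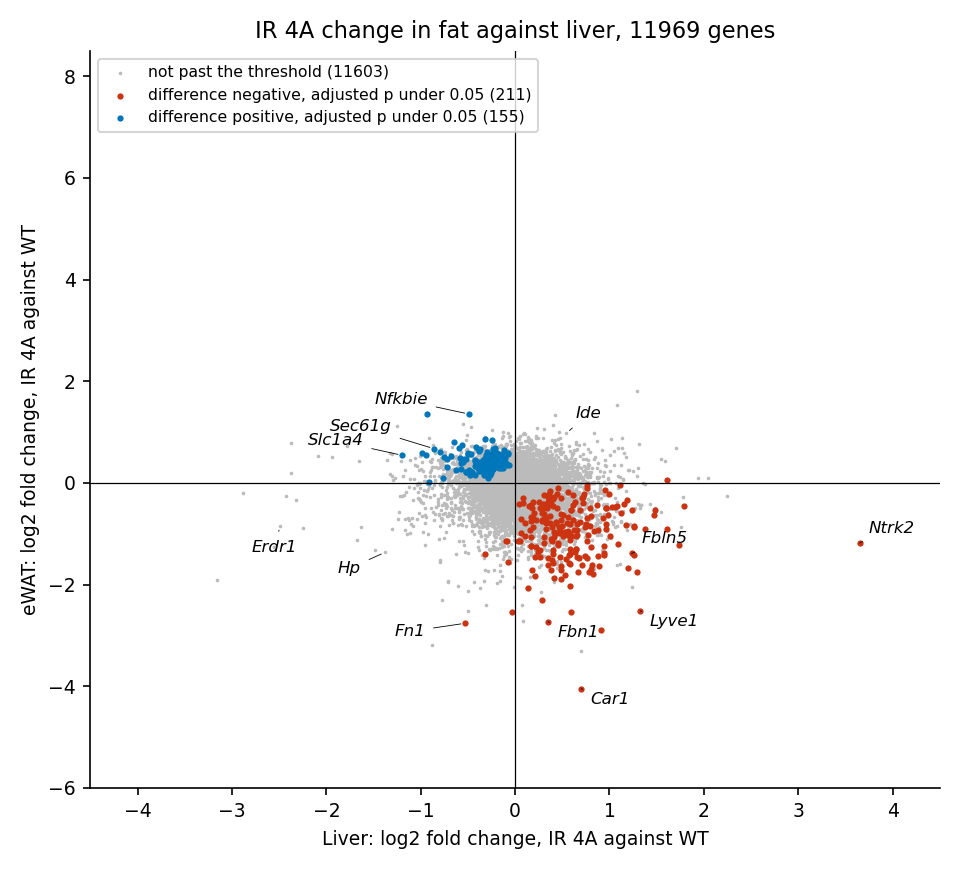
Log2 fold change of IR 4A against WT in liver (x axis) and in eWAT (y axis) for each of 11969 genes, with the 211 genes of negative difference in red and the 155 of positive difference in blue; 1 gene lies outside the axes. Apart from 7 negative genes, the called genes lie in the lower right and upper left quadrants, where the tissues go opposite ways.

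Of the gene lists, extracellular matrix held the most called genes. Of its 50 tested members, 20 had a called negative difference, against 1.76% of all genes, and none a positive one. By estimate, 43 of the 50 were higher in IR 4A liver and lower in IR 4A fat. The median log2 fold change of the list was 0.41 in liver and -1.26 in eWAT, against 0.00 and -0.03 over all genes. The called members were the fibrillar collagen genes Col1a2, Col3a1 and Col5a1, the fibril-associated Col14a1 and Col16a1, the 3 collagen VI genes Col6a1, Col6a2 and Col6a3, the laminins Lama2 and Lamc1, the elastic fibre genes Fbn1, Fbln1, Fbln5 and Efemp1, the proteoglycans Dcn, Fmod and Ogn, and Fn1, Tnxb and Timp2. The 7 of the 50 outside those 43 were lower in both tissues, the called Fn1 among them. With the epididymis sum as a covariate, the median difference of the list moved from -1.68 to -1.15 and 4 members were called; without eWAT WT 4 the median in fat was -0.96, and without the 4 eWAT libraries that were high in testis markers 7 members were called. Over all genes, 7 were called with the covariate and 24 without those 4 libraries. Leaving out 1 library gave 10 (without eWAT IR 4A 3) to 29 matrix calls (without liver IR 4A 1), against 63 and 889 of all 11969 genes. Progenitor and fibroblast markers, which make much of this matrix, summed to 1448 to 3513 CPM in eWAT WT and 667 to 1362 CPM in eWAT IR 4A (12 of 13 with a lower mean in IR 4A, none at 0; exact permutation p = 0.00794, adjusted p = 0.0357), and their part in the matrix result was not tested. 3 of the 13, Col15a1, Dcn and Fbn1, are in the matrix list too.

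Fbln5 encodes fibulin 5, which is needed to assemble elastic fibres. In liver it measured 1.86, 1, 2.11, 1.23 and 1.69 CPM in WT replicates 1 to 5 and 2.67, 4.91, 3.99, 3.71 and 3.42 CPM in IR 4A. In eWAT it measured 43.4, 33.3, 46.0, 84.7 and 31.9 CPM in WT and 25.3, 22.5, 12.3, 12.3 and 19.0 CPM in IR 4A. All liver IR 4A libraries were above all liver WT libraries, and all eWAT IR 4A libraries were below all eWAT WT libraries. The difference was -2.62 ± 0.40 (log2 ± SE, n = 5 per group; edgeR adjusted p = 0.00985), and with the epididymis covariate it was -2.11 (edgeR adjusted p = 0.0192).

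Lama2, the laminin chain of muscle and fat cell basement membranes, separated in the same way. Its CPM in liver was 0.431 to 1.20 in WT (median 0.843) and 1.42 to 2.46 in IR 4A (median 2.07). In eWAT it was 56.1 to 135 in WT (median 68.2) and 17.2 to 35.2 in IR 4A (median 33.2). Its difference was -2.67 ± 0.42 (edgeR adjusted p = 0.00992), and -2.19 with the covariate (edgeR adjusted p = 0.0192).

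Timp2 encodes an inhibitor of matrix metalloproteinases. It measured 6.55, 3.50, 5.42, 4.74 and 7.09 CPM in liver WT and 7.97, 9.01, 8.74, 7.24 and 8 CPM in liver IR 4A. The eWAT values were 221, 240, 262, 457 and 182 CPM in WT and 119, 120, 65.0, 96.5 and 112 CPM in IR 4A, again without overlap in either tissue. The difference was -1.99 ± 0.31 (edgeR adjusted p = 0.00985) and -1.53 with the covariate (edgeR adjusted p = 0.0359). Fbln5, Lama2, Timp2 and Ntrk2 were called in all 20 fits that left out a library.

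Col14a1, a collagen that sits on the surface of fibrils, was the other matrix gene with an adjusted p of 0.00985. Its liver values were 15.8 to 19.0 CPM in WT and 20.6 to 40.6 CPM in IR 4A, and its eWAT values 42.1 to 115 CPM in WT and 20.4 to 31.4 CPM in IR 4A. Neither pair of groups overlapped, and the difference was -2.25 ± 0.34. Fbn1, which encodes the microfibril protein fibrillin 1, had a larger difference of -3.08 ± 0.65 (edgeR adjusted p = 0.0248) that lay almost wholly in fat. Its eWAT values were 145, 165, 195, 512 and 81.1 CPM in WT against 58.0, 34.0, 14.7, 22.5 and 35.6 CPM in IR 4A, while in liver the groups overlapped (1 to 3.16 and 1.6 to 3.73 CPM). The Fbn1 call was lost without liver IR 4A 3, eWAT IR 4A 3 or eWAT IR 4A 4.

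**Figure D3:**
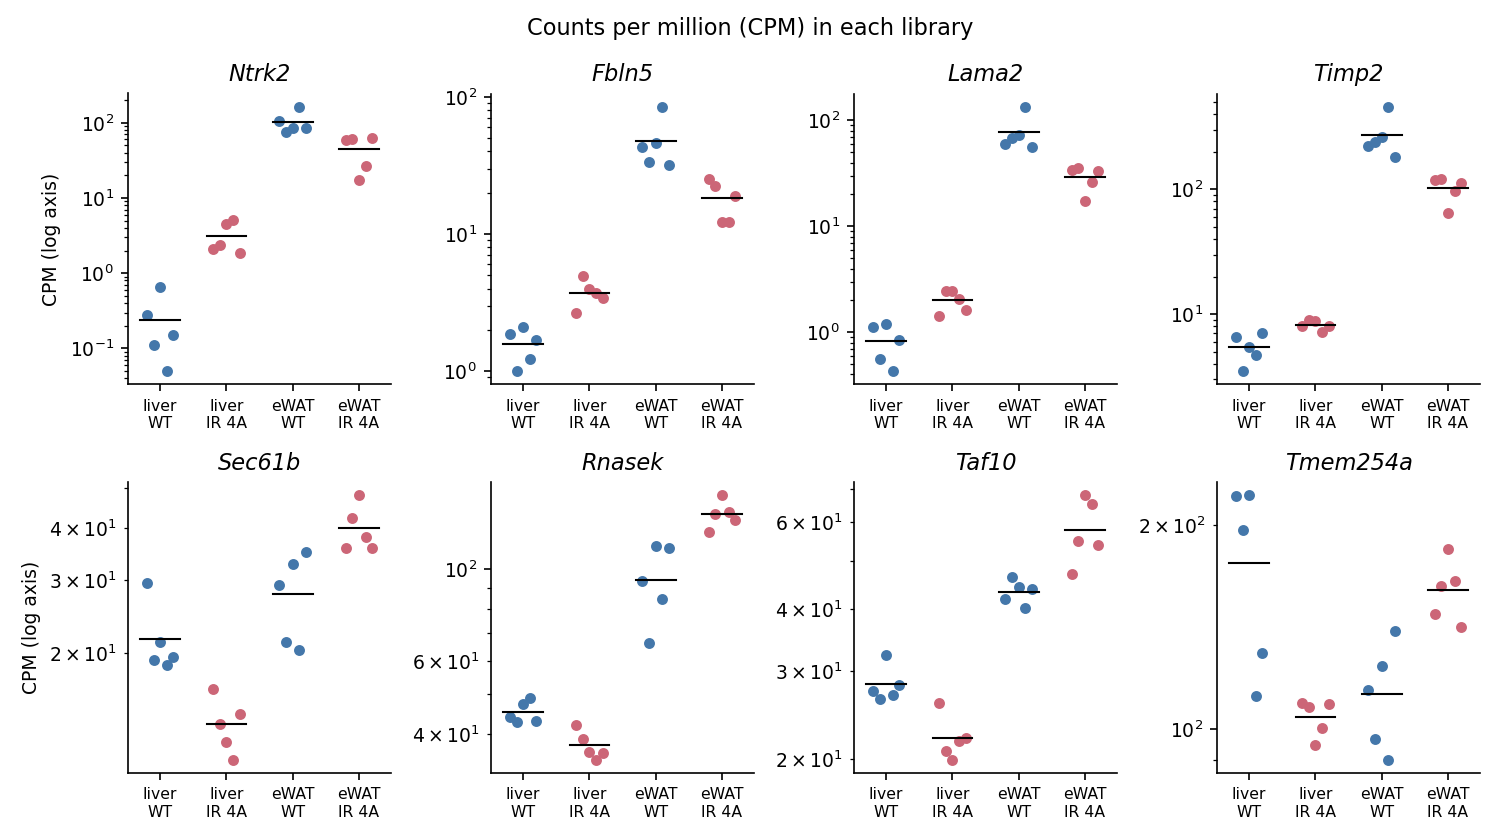
CPM of 8 genes in each library (points, log axis, a zero drawn at 0.05) with group means (lines). The upper genes are higher in IR 4A liver and lower in IR 4A fat, the lower genes show the reverse, and in all 8 neither tissue's groups overlap.

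The largest difference of any named gene belonged to Ntrk2, which encodes TrkB, the receptor of brain-derived neurotrophic factor. In liver WT it was close to absent, with 5, 2, 13, 0 and 3 counts per library (0 to 0.653 CPM), and in liver IR 4A it had 47, 47, 120, 107 and 35 counts (1.84 to 5.03 CPM). In eWAT it went the other way, with 106, 75, 86.5, 164 and 84.3 CPM in WT and 59.6, 60.4, 17.1, 26.5 and 63.0 CPM in IR 4A. The groups overlapped in neither tissue. The fitted difference was -4.83 ± 0.76 (edgeR adjusted p = 0.00985), and -4.41 with the epididymis covariate (edgeR adjusted p = 0.0192). The liver part of this value, a log2 fold change of 3.65 ± 0.60, rests on small counts.

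With the epididymis covariate, 3 further genes beside Fbln5, Lama2, Timp2 and Ntrk2 were called. They were Col4a3 (-1.78, edgeR adjusted p = 0.0231), a basement membrane collagen, Gpx8 (-1.6, edgeR adjusted p = 0.0445), a glutathione peroxidase of the endoplasmic reticulum, and Col16a1 (-1.36, edgeR adjusted p = 0.0448). They were named after their values were seen. In liver these 3 had means of 0.319 and 0.725 CPM for Col4a3, 0.263 and 0.816 CPM for Gpx8 and 1.20 and 2.40 CPM for Col16a1 in WT and IR 4A, and in eWAT their groups overlapped. Col4a3 and Gpx8, like Ntrk2 and Fbln1, were under the filter's limit of 0.501 CPM in liver WT. They entered the test through the liver IR 4A libraries, so a higher level there was a condition of their being tested. Among the 211 negative genes this held for 17, against 145 of all 11969 tested.

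Lyve1, a hyaluronan receptor of lymphatic and sinusoidal endothelium and of some resident macrophages, had a difference of -3.85 ± 0.70 (edgeR adjusted p = 0.0157). It measured 3.56, 1.22, 2.11, 1.54 and 3.42 CPM in liver WT and 2.14, 5.51, 9.97, 9.12 and 3.05 CPM in liver IR 4A, where the groups overlapped. In the eWAT libraries it measured 17.5, 25.7, 28.2, 56.7 and 18.6 CPM in WT and 9.49, 6.54, 1.54, 2.61 and 5.32 CPM in IR 4A, without overlap. The tissue-resident macrophage genes Adgre4 (-3.14 ± 0.76, edgeR adjusted p = 0.0324) and Timd4 (-2.61 ± 0.68, edgeR adjusted p = 0.0457), the latter a receptor for dying cells, showed the same pattern in fat. Adgre4 was 1 to 2.97 CPM in eWAT WT and 0.138 to 0.463 CPM in eWAT IR 4A, and Timd4 1.89 to 5.51 and 0.146 to 1.11 CPM. In liver both overlapped between genotypes. Adgre4 was under the filter's limit of 0.639 CPM in eWAT IR 4A and entered the test through the eWAT WT libraries. A higher level in eWAT WT was thus a condition of its being tested. Adgre4 was called in 13 and Timd4 in 6 of the 20 fits without a library.

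Among macrophage markers all 16 tested members had a negative difference, with a median log2 fold change of 0.18 in liver and -1.07 in eWAT. Of these, 1 (Lyve1) was called, against 3.06% of all genes, and 8 had an unadjusted p under 0.05, against 22.7% of all genes. Without liver IR 4A 1 the list had 6 calls, against 889 of all 11969 genes. The liver median ran from 0.04 (without liver IR 4A 2) to 0.36 (without liver IR 4A 1), and was 0.07 without liver WT 4 or IR 4A 4 and 0.10 without liver IR 4A 3. With the epididymis covariate the median difference of the list moved from -1.14 to -0.68. Among vascular endothelium markers all 16 were negative (median 0.24 in liver and -0.83 in eWAT) and none was called by edgeR. Of these 16, 7 had an unadjusted p under 0.05, against 22.7% of all genes, and DESeq2 called 2, against 1260 of all 11969 genes. The liver median of the endothelium markers was 0.15 without liver WT 2 or WT 3, 0.16 without WT 4, 0.37 without IR 4A 1 and 0.50 without WT 5. With the epididymis covariate the median difference moved from -1.04 to -0.58, with 15 of the 16 negative. The macrophage sum was 608 to 1552 CPM in eWAT WT and 285 to 499.9 CPM in eWAT IR 4A (15 of 17 markers with a lower mean, none at 0; exact permutation p = 0.00794, adjusted p = 0.0357), while in liver it was 191 to 369 and 203 to 379 CPM. The dendritic cell gene Zbtb46, a transcription factor, had a called difference of -1.12 ± 0.21 (edgeR adjusted p = 0.0157), and the chemokine gene Ccl9 one of -2.37 ± 0.45 (edgeR adjusted p = 0.0157). Both were called in all 20 fits without a library.

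Among other groups, 3 of 18 tested genes of growth hormone and IGF action had a called negative difference, against 1.76% of all genes. All 3 encode IGF-binding proteins: Igfbp3 (-1.71), Igfbp5 (-2.27) and Igfbp6 (-2.52), the last named after its values were seen. Igfbp6 was under the filter's limit of 0.501 CPM in liver WT, so a higher level in liver IR 4A was a condition of its being tested. Igfbp3 was called in 5 and Igfbp5 in 6 of the 20 fits without a library. Zfp36l1, which encodes a protein that promotes decay of AU-rich messenger RNAs, had a difference of -1.0 ± 0.18 (edgeR adjusted p = 0.0155), and Fmo2, a flavin monooxygenase, one of -1.76 ± 0.36 (edgeR adjusted p = 0.0185). The second-largest negative difference, that of the carbonic anhydrase gene Car1 (-4.75 ± 1.25, edgeR adjusted p = 0.0482), rested on 1 library. Car1 measured 75.5 CPM in eWAT WT 1 and 0.339 to 4.07 CPM in the other 4 eWAT WT libraries, which overlapped IR 4A (0.446 to 1.73 CPM). Without eWAT WT 1 its difference was -1.89.

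**Figure D4:**
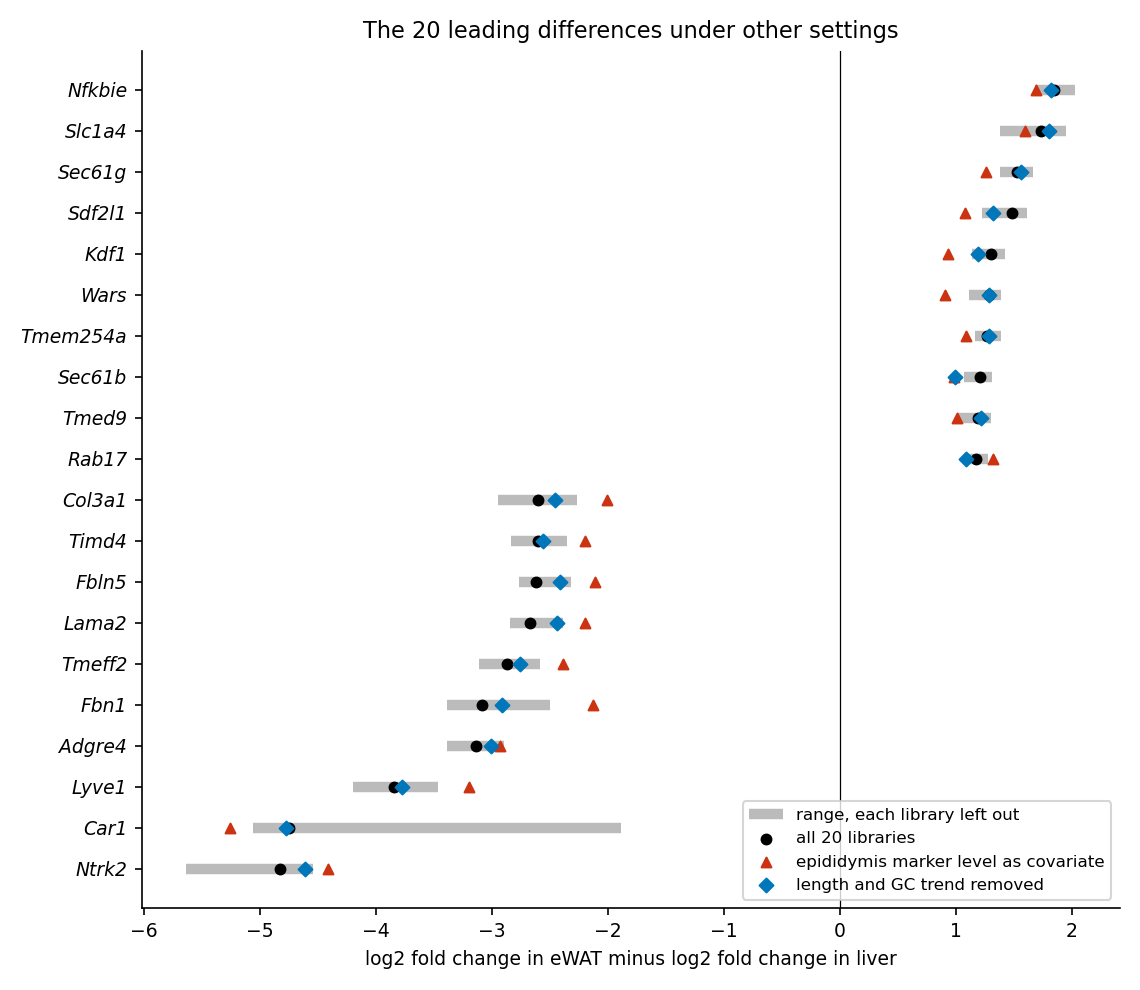
Difference between tissues (log2, eWAT minus liver) of the 10 most positive and 10 most negative named genes, with all 20 libraries (black), with the epididymis sum as covariate (red) and with the length and GC trend removed (blue); grey bars span the 20 fits that each left out a library. No gene crosses 0, and Car1 has the widest span, from -5.07 to -1.89.

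Among the 10 most positive named genes were Sec61b, Sec61g, Tmed9 and Sdf2l1, which act at the endoplasmic reticulum (ER); genes of this kind were not tested as a group. Sec61b and Sec61g encode the small subunits of the Sec61 channel through which new proteins enter the ER. Sec61b measured 29.6, 19.2, 21.3, 18.7 and 19.6 CPM in liver WT and 16.4, 13.5, 12.2, 11.1 and 14.3 CPM in liver IR 4A. In fat it measured 29.3, 21.3, 32.9, 20.4 and 35.2 CPM in WT and 35.9, 42.4, 48.1, 38.1 and 35.9 CPM in IR 4A. The groups overlapped in neither tissue, and the difference was 1.21 ± 0.25 (edgeR adjusted p = 0.0236), a call lost without eWAT IR 4A 2 or eWAT IR 4A 3. Sec61g differed by 1.53 ± 0.35 (edgeR adjusted p = 0.0299), with separate groups in liver (3.28 to 6.38 CPM in WT, 1.46 to 2.89 CPM in IR 4A) and overlapping ones in fat (3.61 to 8.02 and 7.63 to 11.2 CPM).

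Tmed9, a cargo receptor of vesicles between ER and Golgi, measured 54.0, 27.7, 35.7, 35.9 and 33.4 CPM in liver WT and 29.5, 23.7, 19.2, 18.8 and 21.9 CPM in liver IR 4A. In eWAT it was 74.5 to 111 CPM in WT and 117 to 149 CPM in IR 4A, with no overlap. Its difference was 1.19 ± 0.28 (edgeR adjusted p = 0.0322). Sdf2l1, an ER chaperone component induced by unfolded proteins, differed by 1.49 ± 0.40 (edgeR adjusted p = 0.0489) and overlapped between genotypes in both tissues. In the list of ER stress and ATF4 genes, Sdf2l1 was the 1 called member of 32 tested, a share near that of all genes. An unadjusted p under 0.05 was reached by 16 of them (14 positive and 2 negative), against 22.7% of all genes. Of the 32, 28 had a positive difference and 21 were lower in IR 4A liver and higher in IR 4A fat (median -0.34 in liver and 0.18 in eWAT). The liver median moved to -0.15 when liver WT 1 and WT 3, in which acute phase genes were high, were left out, and the eWAT median to 0.09 without eWAT WT 4. DESeq2 called 9 members positive and 1 negative, against 615 positive and 645 negative of all 11969 genes. The amino acid transporter gene Slc1a4 (1.74 ± 0.46, edgeR adjusted p = 0.0460) and the tryptophanyl-tRNA synthetase gene Wars (1.28 ± 0.28, edgeR adjusted p = 0.0276) also had called positive differences. Slc1a4 was highest in liver WT 1 (4.52 CPM) and WT 3 (3.61 CPM), and without these its difference was 0.84 and not called (edgeR adjusted p = 0.132). Sdf2l1 was not called without them either (1.10, edgeR adjusted p = 0.0742).

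Cytosolic ribosomal protein genes had small positive differences almost throughout. All 46 were tested and 45 had a positive difference. Of the 45, 6 were called, Rpl38 and Rplp1 among them, against 1.3% of all genes called positive. An unadjusted p under 0.05 was reached by 34, against 22.7% of all genes. Of the 46, 37 were lower in liver and higher in fat and 9 were higher in both, or 35 and 11 with upper-quartile scaling. The number called ran from 1 (without eWAT IR 4A 2, among others) to 16 (without liver IR 4A 1). In these 2 fits 88 and 889 of all 11969 genes were called. The median log2 fold change was -0.09 in liver and 0.33 in eWAT. Rpl38, a protein of the large subunit, measured 34.7, 33.6, 31.3, 32.7 and 30.3 CPM in liver WT and 27.1, 26.9, 26.6, 28.4 and 27.8 CPM in liver IR 4A, which did not overlap. In eWAT it measured 75.7, 68.2, 83.7, 55.5 and 79.1 CPM in WT and 83.2, 105, 116, 94.2 and 96.4 CPM in IR 4A, where eWAT IR 4A 1 lay below eWAT WT 3. The difference was 0.70 ± 0.13 (edgeR adjusted p = 0.0157), and 0.36 with the length and GC trend removed, where it was not called (edgeR adjusted p = 0.102). The list's transcripts are short, with a median of 1192 nucleotides. With the trend removed 2 members were called, against 193 of all 11959 genes with a length. Ribosomal protein genes have many near-identical pseudogene copies that can share reads, so single members are uncertain.

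Groups overlapped in neither tissue for 22 of the 155 positive genes, among them Rnasek, Taf10 and Tmem254a. The same held for 15 of the 211 negative genes and for 48 of all 11969 tested genes (0.401%). A call on the difference favours separate groups by its construction, so the larger shares among called genes are a description only. Rnasek, a small membrane protein linked to the proton pump of endosomes, was 42.8 to 48.9 CPM in liver WT and 34.8 to 42.2 CPM in liver IR 4A, and 66.3 to 113 and 123 to 151 CPM in eWAT. Its difference was 0.79 ± 0.15 (edgeR adjusted p = 0.0157). Taf10, a subunit of the general transcription factor TFIID, differed by 0.77 ± 0.15 (edgeR adjusted p = 0.0161), with liver values of 26.3 to 32.4 and 19.9 to 25.9 CPM and eWAT values of 40.2 to 46.4 and 47.2 to 67.9 CPM. Both were called in all 20 fits without a library. Tmem254a (1.27 ± 0.27, edgeR adjusted p = 0.0270) has near-identical copies beside it, so its counts are uncertain.

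The most positive difference of a named gene was that of Nfkbie, which encodes an inhibitor of NF-kB, at 1.84 ± 0.42 (edgeR adjusted p = 0.0300). It lay mainly in fat, where Nfkbie measured 5.51, 3.60, 7.15, 3.56 and 5.95 CPM in WT and 17.1, 15.4, 5.86, 12.6 and 14.9 CPM in IR 4A. Replicate 3 of IR 4A fell within the WT range, and in liver the groups overlapped (1.06 to 2.88 and 0.901 to 1.87 CPM). Kdf1 (1.30), which controls the differentiation of epidermal cells, and Rab17 (1.17), a GTPase of epithelial sorting, are genes of epithelia. Epithelial genes of the cholangiocyte list, largely keratins and adhesion molecules, summed to 308 to 623 CPM in eWAT WT and 641 to 741 CPM in eWAT IR 4A (all 9 with a higher mean, none at 0; exact permutation p = 0.00794, adjusted p = 0.0357). Their part in the positive differences was not tested.

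Promoters of 5 called genes are shown as examples of both directions. Timp2 and Zfp36l1 are negative, and Rpl38, Sec61b and Sdf2l1 positive. Each sequence is the 250 bases before the first start that RefSeq lists for the gene on build GRCm38.p6, 5′ to 3′ on the gene's strand. Timp2 lies at chr11:118355412-118355661 (minus strand), Zfp36l1 at chr12:80113014-80113263 (minus), Rpl38 at chr11:114668330-114668579 (plus), Sec61b at chr4:47474411-47474660 (plus) and Sdf2l1 at chr16:17132384-17132633 (minus). Capitals mark matches, on either strand, to 6 motifs: the TATA box TATAAA, the GC box GGGCGG, the CCAAT box CCAAT, the ETS family site CCGGAAG, the AP-1 site TGANTCA and the ER stress element, which contains a CCAAT box.
Timp2: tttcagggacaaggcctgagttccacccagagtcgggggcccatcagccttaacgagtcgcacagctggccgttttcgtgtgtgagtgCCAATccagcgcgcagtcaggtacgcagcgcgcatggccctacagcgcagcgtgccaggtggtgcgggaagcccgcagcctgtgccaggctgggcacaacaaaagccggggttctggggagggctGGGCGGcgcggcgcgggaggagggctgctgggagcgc
Zfp36l1: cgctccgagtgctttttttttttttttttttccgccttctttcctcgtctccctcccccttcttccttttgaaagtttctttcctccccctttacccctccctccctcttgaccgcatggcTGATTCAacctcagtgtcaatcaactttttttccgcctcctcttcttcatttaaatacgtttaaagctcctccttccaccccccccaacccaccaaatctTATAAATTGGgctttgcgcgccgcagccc
Rpl38: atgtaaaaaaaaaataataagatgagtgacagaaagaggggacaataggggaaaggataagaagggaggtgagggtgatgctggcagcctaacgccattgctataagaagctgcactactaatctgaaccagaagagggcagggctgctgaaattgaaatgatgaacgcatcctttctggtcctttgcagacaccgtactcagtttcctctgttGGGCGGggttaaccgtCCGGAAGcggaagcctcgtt
Sec61b: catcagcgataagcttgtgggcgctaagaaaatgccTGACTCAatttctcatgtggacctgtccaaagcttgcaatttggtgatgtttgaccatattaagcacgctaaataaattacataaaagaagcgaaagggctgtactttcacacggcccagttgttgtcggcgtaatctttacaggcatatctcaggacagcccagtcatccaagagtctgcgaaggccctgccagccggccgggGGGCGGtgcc
Sdf2l1: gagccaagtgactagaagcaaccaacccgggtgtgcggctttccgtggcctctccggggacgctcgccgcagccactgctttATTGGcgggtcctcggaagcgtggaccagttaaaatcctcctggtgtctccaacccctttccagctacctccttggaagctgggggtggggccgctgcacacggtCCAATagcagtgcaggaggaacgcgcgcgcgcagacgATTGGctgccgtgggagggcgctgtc

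In these windows Timp2 held a GC box and a CCAAT box. Zfp36l1 held an AP-1 site, and a TATA box and a CCAAT box that share a base. Rpl38 held a GC box and an ETS site whose first base is 20 bases before the start. Sec61b held a GC box and an AP-1 site, and Sdf2l1 3 CCAAT boxes. A promoter was found for 128 of the 155 positive genes, 163 of the 211 negative genes and 9566 of all tested genes. The ETS site was present in 18.8% of the positive, 4.29% of the negative and 14.3% of all promoters, and the AP-1 site in 4.69%, 7.98% and 4.24%. The GC box was present in 67.2%, 54.6% and 59%, the TATA box in 3.12%, 9.2% and 6.42%, and the CCAAT box in 36.7%, 30.1% and 36.8%. The ER stress element was in 7 of the 29 promoters of the ER stress list, 0.157% of all promoters and none of those of the called genes.

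Lists of metabolism and insulin action held few called genes. Over all genes 3.06% were called by edgeR, so few calls in lists of this size are no result about their members. An unadjusted p under 0.05 was reached by 22.7% of all genes, and DESeq2 called 1260 of 11969. In the cholesterol synthesis and uptake list no gene of 25 was called by edgeR, 9 had an unadjusted p under 0.05 and DESeq2 called 4. The median was -0.31 in liver and 0.33 in eWAT; without liver WT 1 and WT 3 the liver median was 0.07. In de novo lipogenesis no gene of 25 was called by edgeR, 4 had an unadjusted p under 0.05 and DESeq2 called 1. The medians were 0.33 in liver and -0.22 in eWAT, and without eWAT WT 4 the fat median was 0.03. Without liver WT 1 the liver median was 0.21, and without liver WT 1 and WT 3 it was 0.17. Fasn, the fatty acid synthase, measured 131 to 222 CPM in liver WT and 236 to 284 CPM in liver IR 4A, and 646 to 2793 and 405 to 1505 CPM in eWAT. Scd1, which desaturates stearate, measured 997 to 3904 and 3725 to 6504 CPM in liver and 3839 to 11381 and 1017 to 6422 CPM in eWAT. Their differences, -1.15 ± 0.47 and -2.12 ± 0.62, were not called (edgeR adjusted p = 0.158 and 0.0652).

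**Figure D5:**
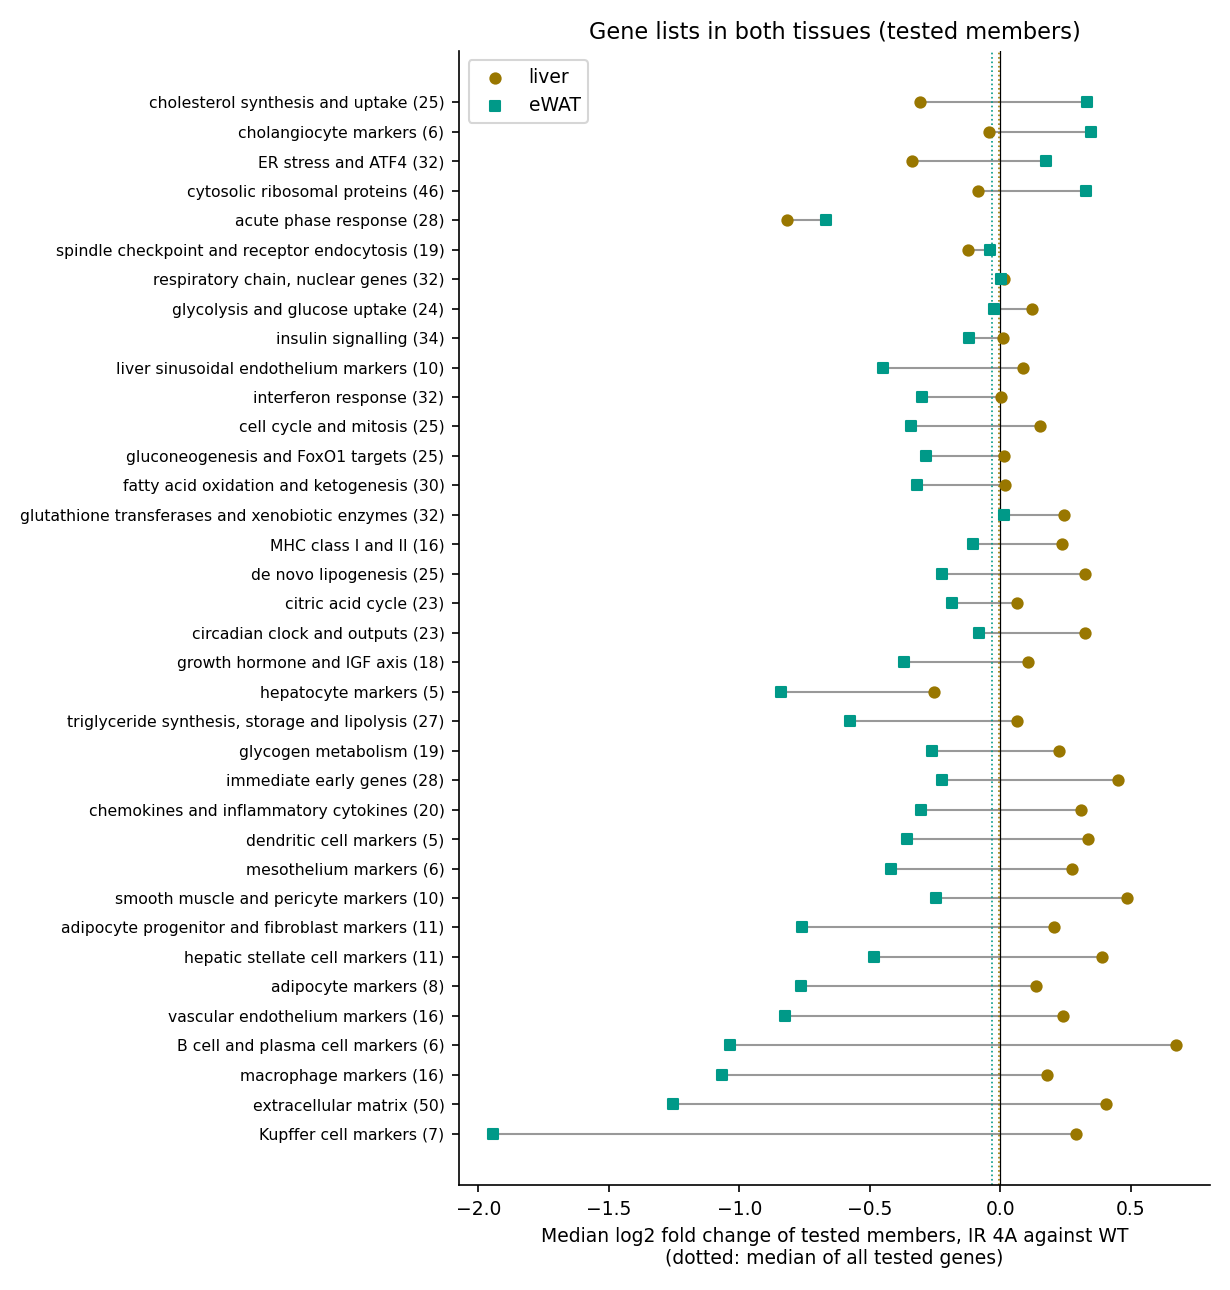
Median log2 fold change of IR 4A against WT in liver (circles) and in eWAT (squares) for each gene list with at least 5 tested members (number in brackets), ordered by the median difference; dotted lines give the medians of all tested genes. Matrix, macrophage and endothelium lists are above 0 in liver and below it in eWAT, cholesterol, ER stress and ribosomal lists are the reverse, and the acute phase list is below 0 in both.

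The insulin receptor itself showed no called difference between tissues. Insr measured 146 to 166 CPM in liver WT, 152 to 177 CPM in liver IR 4A, 135 to 202 CPM in eWAT WT and 99.2 to 154 CPM in eWAT IR 4A, overlapping in both tissues (difference -0.37 ± 0.16, edgeR adjusted p = 0.170). Mad2l1 measured 1.64 to 3.51 CPM in liver WT and 1.87 to 2.73 CPM in liver IR 4A, and 8.69 to 16.0 and 9.32 to 16.0 CPM in eWAT (difference -0.07 ± 0.29, edgeR adjusted p = 0.912). The differences of Igf1r (0.33), Irs1 (-0.65), Irs2 (-0.28), Mad2l1bp (0.17), Srebf1 (-0.65) and Pck1 (-0.92) were not called either, with edgeR adjusted p from 0.218 to 0.912 over these genes and Mad2l1. Bub1b, Slc2a4, Adipoq and Lep did not pass the count filter in both tissues. None of 34 insulin signalling genes was called by edgeR, against 3.06% of all genes. An unadjusted p under 0.05 was reached by 12 of the 34, against 22.7% of all genes. Of 19 genes of the checkpoint and receptor endocytosis, Ap2s1, the small subunit of AP2, was called, with a positive difference of 0.48 ± 0.11 (edgeR adjusted p = 0.0330).

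Genes that moved the same way in both tissues were fewer. Averaged over both tissues, the IR 4A change passed for 6 genes (0.0501%), 2 higher and 4 lower, and at an unadjusted p under 0.05 for 13.5% of genes. Of the 5 named by rule (Grb7, Myrf, Man2a1, Erdr1 and Fn1), 0 were called by edgeR in all 20 fits without a library, 0 with the epididymis covariate, 0 without liver WT 1 and WT 3 and 0 without eWAT WT 4, though all kept their direction. Within single tissues an unadjusted p under 0.05 was reached by 18.3% of genes in liver and 21.6% in eWAT. Both limits were passed by 402 genes in opposite directions (3.36%) and by 131 genes in the same direction (1.09%), and these 533 genes were 24.4% of the liver list and 20.6% of the eWAT list. Of the 131, 58 were higher and 73 lower in both; of the 402, 196 were higher in liver and lower in fat and 206 the reverse.

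The 2 genes with a higher average were Grb7 and Gpx8. Grb7, an adaptor protein that binds activated receptor tyrosine kinases including the insulin receptor, measured 56.3, 53.1, 49.8, 53.9 and 55.9 CPM in liver WT and 57.2, 61.3, 64.4, 62.5 and 59.2 CPM in liver IR 4A. In the eWAT libraries it measured 33.6, 24.4, 34.1, 25.6 and 39.1 CPM in WT and 46.7, 51.3, 61.0, 49.0 and 41.7 CPM in IR 4A. No groups overlapped, and the average was 0.43 ± 0.07 (log2 ± SE, edgeR adjusted p = 0.0369). For Gpx8 the average (0.84 ± 0.14, edgeR adjusted p = 0.0344) lay in liver, at the low counts described above, where its log2 fold change was 1.61 ± 0.35 against 0.06 ± 0.09 in eWAT. Gpx8 was named after its values were seen, and a higher level in liver IR 4A was a condition of its being tested.

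The 4 genes with a lower average were Myrf, Man2a1, Erdr1 and Fn1, and the first, second and last of these also differed between tissues, with the larger estimate in fat. Myrf, a membrane-bound transcription factor whose gene lies near those of the fatty acid desaturases, measured 44.4, 34.9, 35.5, 28.0 and 29.1 CPM in liver WT and 32.1, 25.5, 26.7, 24.6 and 29.3 CPM in liver IR 4A. In fat it measured 15.9, 16.3, 19.6, 29.6 and 16.6 CPM in WT and 8.72, 7.34, 5.64, 7.64 and 7.57 CPM in IR 4A. The liver groups overlapped and the eWAT groups did not (average -0.86 ± 0.13, edgeR adjusted p = 0.0344). Man2a1, a Golgi mannosidase that trims N-glycans, had an average of -0.62 ± 0.10 (edgeR adjusted p = 0.0353). It measured 192 to 297 CPM in liver IR 4A against 244 to 279 CPM in liver WT, a range that spanned that of WT. In eWAT it measured 38.8 to 61.8 CPM in IR 4A against 91.9 to 148 CPM in WT, without overlap. Fn1, fibronectin, was -0.53 ± 0.22 in liver and -2.76 ± 0.55 in eWAT (average -1.65 ± 0.29, edgeR adjusted p = 0.0436). In liver WT, Fn1 was 4776 and 3546 CPM in replicates 1 and 3 and 2205 to 2317 CPM in the others, within the liver IR 4A range of 1716 to 2589 CPM, and without replicates 1 and 3 its average was -1.44 (edgeR adjusted p = 0.0840).

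Erdr1 was the 1 gene that passed in liver alone (log2 fold change -2.49 ± 0.26). It measured 25.4, 17.6, 27.2, 20.9 and 24.2 CPM in liver WT and 7.70, 3.10, 3.43, 3.95 and 2.21 CPM in liver IR 4A, and 7.94 to 38.7 and 5.35 to 23.7 CPM in eWAT, where the groups overlapped. Its average was -1.67 ± 0.28 (edgeR adjusted p = 0.0353). Erdr1 lies in a repetitive region at the end of the sex chromosomes, where counts from short reads are uncertain. No gene passed in eWAT alone by edgeR.

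The fatty acid desaturase genes Fads1, Fads2 and Scd2 were among the 58 genes past an unadjusted p of 0.05 and higher in both tissues, but no average of theirs was called. Fads1, the delta-5 desaturase, measured 259, 347, 335, 335 and 345 CPM in liver WT and 412, 399, 438, 456 and 425 CPM in liver IR 4A. In eWAT its values were 223, 184, 224, 142 and 254 CPM in WT and 265, 285, 308, 288 and 305 CPM in IR 4A. No groups overlapped, and the average was 0.45 ± 0.09, which did not pass (edgeR adjusted p = 0.0761). Fads2, the delta-6 desaturase and a neighbour of Fads1, averaged 0.46 (edgeR adjusted p = 0.126). Scd2, a second stearoyl-CoA desaturase, measured 1.89 to 2.96 CPM in liver WT, 3.12 to 5.88 CPM in liver IR 4A, 599 to 926 CPM in eWAT WT and 961 to 1245 CPM in eWAT IR 4A, without overlap (average 0.61, edgeR adjusted p = 0.107).

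Ide, the insulin-degrading enzyme, measured 131, 80.0, 83.0, 76.0 and 118 CPM in liver WT and 146, 143, 128, 147 and 148 CPM in liver IR 4A. In fat it measured 112, 187, 93.2, 63.5 and 103 CPM in WT and 190, 198, 239, 270 and 201 CPM in IR 4A. The eWAT groups did not overlap, while in liver IR 4A 3 lay below WT 1. The average was 0.76 ± 0.15 (edgeR adjusted p = 0.0789), and 0.86 without the 4 eWAT libraries high in testis markers (edgeR adjusted p = 0.0289). The transcription factor gene Tfap4 (average 0.54 ± 0.10, edgeR adjusted p = 0.0761) and Enpp2, which encodes the lysophosphatidic acid producer autotaxin (0.48 ± 0.15, edgeR adjusted p = 0.201), were above all WT libraries in both tissues.

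Among the lower genes, Hp, which encodes the haemoglobin-binding acute phase protein haptoglobin, averaged -1.37 ± 0.36 (edgeR adjusted p = 0.161). It measured 12359, 2158, 7613, 2539 and 2953 CPM in liver WT and 1423 to 2830 CPM in liver IR 4A, and 645 to 1879 and 98.4 to 591 CPM in eWAT. Liver WT 1 and WT 3 were the high libraries, and without them the average was -0.81. In the acute phase list 22 of 28 genes were lower in both tissues and none differed between them by edgeR. Of the 28, 5 had an unadjusted p under 0.05, against 22.7% of all genes, and DESeq2 called 2, against 1260 of all 11969 genes. The list's liver median was -0.82, and -0.19 without liver WT 1 and WT 3; its eWAT median was -0.67, and -0.15 without eWAT WT 4. Taok2, a kinase of the stress pathways, was below all WT libraries in all IR 4A libraries of both tissues (average -0.24 ± 0.06, edgeR adjusted p = 0.126). Ap2a2, a large subunit of the clathrin adaptor AP2, averaged -0.31 (edgeR adjusted p = 0.108), with 38.4 to 41.1 CPM in liver IR 4A below 43.4 to 57.0 CPM in liver WT. Its eWAT groups overlapped, with 94.4 to 132 CPM in WT and 76.5 to 98.5 CPM in IR 4A.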

How the data were processed

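RNA was extracted with TRIzol and RNeasy columns, and poly-A selected, stranded libraries were sequenced as paired reads, per the labels' protocols. The deposited values are estimated gene counts, whole numbers per gene and library, which the authors made with Salmon 1.8.0, and the notes also name DESeq2 1.32.0 and build GRCm39, per the submitters' processing notes. Liver and eWAT tables were joined by Ensembl identifier, and repeated identifiers (83 in liver, 208 in eWAT) were dropped.

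Genes passed edgeR's filter (minimum count 10, total 15) in each tissue separately. The 4 groups were fitted together with edgeR 4.0.16 in R 4.3.3 (quasi-likelihood F test, TMM scaling and dispersion trend within each tissue), without covariates. Tested were the difference between the tissues' log2 fold changes and their average, with Benjamini-Hochberg adjustment at 0.05. The dispersion trend in fat and in liver could so differ, while a gene's quasi-likelihood spread was 1 value over both tissues. The alternative with each tissue fitted alone, which called 787 differences, let that spread differ too. Filtering in each tissue leaves out genes of 1 tissue only. Scripts were tested on simulated data. Marker sums and length slopes were compared by two-sided exact permutation tests, whose smallest p with 5 against 5 is 0.00794.

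Genes named by rule averaged 1 CPM or more in liver and in eWAT; Col4a3, Col16a1, Gpx8, Igfbp6 and other called list members were named after their values were seen. The rule took the 10 most positive and 10 most negative called differences, the 8 clearest of each direction class past an unadjusted p of 0.05 in both tissues, the 5 higher and 5 lower averages of smallest p, up to 3 per gene list, and a set of insulin action genes. The lists, the rule and the genes were chosen with earlier results of these data known. Alternatives covered the threshold, tool (DESeq2 1.42.0, limma 3.58.1), scaling, filter, replicate block and libraries left out; the length and GC, epididymis, testis marker and liver WT 1 and 3 alternatives were chosen after seeing the data. Promoters came from RefSeq on GRCm38.p6, since no GRCm39 sequence was used here. All replicate pairs differed by more than sampling noise.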

Additional observations from a re-analysis of the deposited data

Results flagged for a closer look

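The IR 4A change differed between fat and liver, by the test of the difference itself, for 366 genes, 155 of them positive and 211 negative. The most negative named differences (log2) were Ntrk2 -4.83, Car1 -4.75, Lyve1 -3.85, Adgre4 -3.14, Fbn1 -3.08, Tmeff2 -2.87, Lama2 -2.67, Fbln5 -2.62, Timd4 -2.61 and Col3a1 -2.60. The most positive were Nfkbie 1.84, Slc1a4 1.74, Sec61g 1.53, Sdf2l1 1.49, Kdf1 1.30, Wars 1.28, Tmem254a 1.27, Sec61b 1.21, Tmed9 1.19 and Rab17 1.17.

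Single libraries stood apart from the rest of their group in 14 of 148 groups of 5 values examined. The limit used sets apart about 1 in 20 groups of independent, normally distributed values. The groups examined share the same 20 libraries and hold genes chosen from these data, so an excess over that rate was not tested. Of the 14, 8 were eWAT WT 4. That library was the highest of eWAT WT for Fbln5 (84.7 CPM), Lama2 (135 CPM), Timp2 (457 CPM), Fbn1 (512 CPM), Lyve1 (56.7 CPM), Myrf (29.6 CPM), Fasn (2793 CPM) and the sum of adipocyte markers (39031 CPM). Car1 stood apart in eWAT WT 1 (75.5 CPM), Tfap4 in eWAT IR 4A 1 (8.31 CPM), Sec61b (29.6 CPM, high) and Fads1 (259 CPM, low) in liver WT 1, Ide in liver IR 4A 3 (128 CPM, low) and Sec61g in liver IR 4A 4 (1.46 CPM, low).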

How the results depend on the processing

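The count of genes whose change differs between tissues, 366 here, was 358, 364, 333, 331, 255 and 500 with the robust prior, RLE and upper-quartile scaling, the stricter filter, TMM over 20 libraries and limma voom. It was 1059 at an adjusted p of 0.1, 188 with an absolute log2 difference of at least 1, 633 with 1 dispersion trend, 787 with each tissue fitted alone, 1260 by DESeq2, 133 with the filter over the 4 groups and 122 with no filter. With the epididymis marker sum as a covariate it was 7, with the length and GC trend removed 193, without the 4 eWAT libraries high in testis markers 24, and without liver WT 1 and 3 it was 224. Leaving out 1 library gave 63 (without eWAT IR 4A 3) to 889 (without liver IR 4A 1). This count moved by over 1.5 times in 13 of the 20 such fits: those without liver WT 3, any liver IR 4A library, eWAT WT 1, 3 or 4, or eWAT IR 4A 2, 3, 4 or 5.

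The average over both tissues gave 6 genes here, 12 at an adjusted p of 0.1, 2 at an absolute log2 value of at least 1, 3 with each tissue fitted alone, 10 by voom, 293 by DESeq2, 1 with the filter over the 4 groups and with no filter, 3 with the stricter filter, and none with the covariate (891 unadjusted) or without liver WT 1 and 3 (1404 unadjusted). Leaving out 1 library gave 0 to 14, with 0 in 9 of the 20 fits. The 533 genes past an unadjusted p of 0.05 in both tissues were 66 at 0.01, 227 without the 4 testis-high libraries, and 331 (without eWAT IR 4A 3) to 693 (without liver IR 4A 1) on leaving out 1 library; between 67.5% and 87.9% went in opposite directions in all these settings.

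With a replicate block of the number within a genotype, edgeR called 0 differences (2556 at an unadjusted p under 0.05, smallest adjusted p 0.0618), and with a replicate block of the number over all groups 141 differences and 0 averages (1550 unadjusted). Deviations of log2 CPM from the group mean correlated at -0.152 to 0.0799 between same-numbered liver and eWAT libraries of a genotype. Of 10 pairs, 0 exceeded 0.1. Such correlations cannot show whether a number marks the same animal in both tissues. The labels give no such link, so the numbers were not taken to pair samples. If they do mark animals, the block within a genotype, with 0 called differences, is the fit that applies.

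Of the 44 named genes called, 19 were called in all 20 fits without a library, 4 with the covariate, 32 with the length and GC trend removed and 11 without the testis-high libraries, and none changed sign in any setting. Signs turned only for uncalled genes: with the covariate Igf1r was -0.11, Irs2 0.0569 and Mad2l1bp -0.0791; Mad2l1 was 0.23 with the length and GC trend removed and 0.13 without the testis-high libraries, where Mad2l1bp was -0.14; on leaving out 1 library Mad2l1 ran from -0.236 to 0.0424 and Mad2l1bp from -0.0237 to 0.365. The cause of these shifts was not tested. Genes with few counts in liver, such as Ntrk2, limit the precision of the largest differences.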
